A study of Mus musculus with 9 samples.

Results

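The subject is a set of 37 mouse genes whose transcripts are known to hold exons that muscleblind-like (MBNL) proteins splice in muscle. They were taken by symbol from a list of names out of 55401 genes in the count tables. All 37 were found and all passed the filter on low counts, with no fewer than 575 counts for any of them in any library. The values are reads per gene, so they give the amount of transcript and carry no reading of which exons were included.

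RNA came from the injected calf muscle (gastrocnemius) of FVB mice, wild-type and 2 to 3 months old, collected 7 weeks after the injection. The 3 groups, of 3 libraries each, received saline, an adeno-associated virus vector for green fluorescent protein (AAV-GFP), or the vector AAV-GFP-MBNL1∆. MBNL1∆ is a truncated MBNL1 that keeps the RNA-binding zinc fingers and was designed as a decoy for expanded CUG repeats. The comparison in wild-type muscle, which has no such expansion, bears on the injected vectors without that target. For the decoy group it also takes in a difference in sex-linked genes, given below. Serotype, promoter and dose of the vectors are not given here. No label states that a group's libraries are 3 animals, so each p-value speaks only of spread between libraries.

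MBNL proteins are zinc-finger proteins that bind a GC step flanked by pyrimidines in pre-mRNA. As a rule they repress an exon when bound in or upstream of it and promote its inclusion when bound downstream. In myotonic dystrophy type 1 they are held by CUG repeat RNA, and transcripts such as Clcn1, Insr and Bin1 return to fetal exon patterns. The fetal pattern of Clcn1 leaves the fibre short of chloride channels, which is tied to myotonia.

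The exons themselves are shown first, because they are what places these genes together. The lines below give annotated cassette exons (GENCODE M21, GRCm38, sequence 5′ to 3′ on the transcribed strand) of 3 genes with textbook MBNL-dependent exons and of members whose transcript amount differed between groups. Capitals mark the MBNL-type motifs in DNA letters, which are TGCT as well as TGCC and likewise CGCT as well as CGCC. They were searched on the transcribed strand alone, since the protein binds RNA, and motifs that share a base were counted separately.
Clcn1, 79 bases, chr6:42293444-42293522, plus strand: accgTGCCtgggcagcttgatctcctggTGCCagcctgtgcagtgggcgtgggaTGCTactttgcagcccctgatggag
Cacna1s, 57 bases, chr1:136104570-136104626, plus strand: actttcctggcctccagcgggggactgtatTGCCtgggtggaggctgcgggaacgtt
Insr, 36 bases, chr8:3181702-3181737, minus strand: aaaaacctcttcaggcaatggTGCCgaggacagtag
Nfix, 123 bases, chr8:84723728-84723850, minus strand: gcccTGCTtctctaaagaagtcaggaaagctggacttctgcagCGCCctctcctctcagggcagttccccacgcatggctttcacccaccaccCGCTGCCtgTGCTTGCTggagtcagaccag
Pdlim5, 144 bases, chr3:142282969-142283112, minus strand: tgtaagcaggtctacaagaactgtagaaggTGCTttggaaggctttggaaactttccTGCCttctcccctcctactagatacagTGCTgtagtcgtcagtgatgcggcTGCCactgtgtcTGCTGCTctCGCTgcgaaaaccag
Phka1, 177 bases, chrX:102557096-102557272, minus strand: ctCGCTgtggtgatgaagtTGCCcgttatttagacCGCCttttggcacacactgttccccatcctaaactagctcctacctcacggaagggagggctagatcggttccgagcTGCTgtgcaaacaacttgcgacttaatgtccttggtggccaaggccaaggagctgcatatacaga
Vldlr, 84 bases, chr19:27246593-27246676, plus strand: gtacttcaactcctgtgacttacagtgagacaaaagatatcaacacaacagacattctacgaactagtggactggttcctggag
Slain2, 78 bases, chr5:72965804-72965881, plus strand: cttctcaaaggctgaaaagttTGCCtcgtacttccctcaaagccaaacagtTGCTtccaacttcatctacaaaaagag
Ppp1r12a, 171 bases, chr10:108253325-108253495, plus strand: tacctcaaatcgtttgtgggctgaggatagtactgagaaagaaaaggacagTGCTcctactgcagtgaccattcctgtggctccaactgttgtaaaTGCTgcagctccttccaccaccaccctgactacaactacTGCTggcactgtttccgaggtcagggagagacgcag
Camk2d, 33 bases, chr3:126802937-126802969, plus strand: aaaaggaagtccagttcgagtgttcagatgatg
Camk2d, 60 bases, chr3:126805857-126805916, plus strand: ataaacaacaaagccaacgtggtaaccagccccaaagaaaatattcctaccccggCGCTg
Camk2d, 42 bases, chr3:126808208-126808249, plus strand: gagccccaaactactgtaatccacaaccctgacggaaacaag

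The Clcn1 exon, whose length is not a multiple of 3, is annotated in a transcript of the nonsense-mediated decay class, and it holds 3 motif copies. The Nfix exon holds 6 copies, the Pdlim5 exon 7 and the Phka1 exon 4, while the Vldlr exon shown holds none of these letters. Each of these 4 genes has other coding cassette exons. The other 4 of Pdlim5 hold 0 copies, the other 3 of Phka1 hold 0 or 1, the other Nfix exon holds 8 and the other 2 of Vldlr hold 2 each. Of the 3 Camk2d exons, which encode part of the variable linker of the kinase, 1 holds a copy. Which of the Pdlim5, Phka1, Slain2, Ppp1r12a and Camk2d exons MBNL acts on is not in the files, and a match is a description of letters, not a binding site.

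Among the 37 genes, 32 had at least 1 annotated cassette exon that is coding throughout, or 86.5%, against 24.9% of 14351 tested protein-coding genes. Since the genes were listed for their alternative exons, that share describes the choice. The 105 such exons of the members had a median length of 81 bases against 96 over 5513 cassette exons of all tested genes, and 96.2% were a multiple of 3 bases long against 79.6%. Motif copies were present in 61.9% of the members' cassette exons and in 66.0% of all. The median density was 1.235 and 1.163 copies per 100 bases. Ank2, Ttn and Clasp1 had 10 such exons each, the most in the set, while Atp2a1, Pdlim3, Trim55, Usp25 and Mxra7 had none by this rule.

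Several libraries stand apart and bear on every result. The library AAV-GFP 2 had the highest sums of macrophage markers (1574 CPM, reads scaled to library size, against 74.7 to 93.5 in saline) and of T-cell markers (90.7 against 0.863 to 1.31), and the lowest sum of 30 muscle fibre genes (121210 against 191195 to 230763). Over the groups, the 10 T-cell markers summed to 6.66 to 90.7 in AAV-GFP and 6.98 to 17.1 in AAV-GFP-MBNL1∆, and the 9 macrophage markers to 160.6 to 1574 and 131.6 to 199.6. Of the T-cell markers, Cd8a was at 0 in saline. The B and plasma cell markers summed to 0.363 to 1.24, 3.28 to 907 and 31.4 to 96.1, with Mzb1 at 0 in all libraries, and the 7 adipocyte markers to 232 to 329, 241 to 298 and 153 to 171. The median adipocyte marker lay further off, at -1.27, -3.54 and -3.03 (log2, from the saline mean) in AAV-GFP-MBNL1∆ 1, 2 and 3. In saline 1, 2 and 3 it was at 0.64, 0.38 and -1.04. The levels of Xist were 105.1 to 135.7 CPM in the 6 control libraries (saline and AAV-GFP) but 0.0182 to 0.0902 with AAV-GFP-MBNL1∆, where the Y-linked Ddx3y was at 82.7 to 84.6 against 0.409 to 2.58. The decoy vector and the sex that these genes mark thus cannot be told apart in any comparison of that group. Of the control libraries, AAV-GFP 1 had the most Y-linked reads, with Ddx3y at 2.58 CPM, Eif2s3y at 1.11 and Uty at 0.741. The other controls had at most 0.693, 0 and 0.0221, and the source of these reads was not tested.

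Members were abundant transcripts in this muscle. Per kilobase of annotated exon, their median level in saline was 22.6 RPKM against 1.93 over all tested genes, and 23 of 37 lay among the top 10% of genes. On this per-length scale Atp2a1 was the highest of the members at 9157 RPKM and Camk2d the lowest at 2.85. The spread between libraries, as a coefficient of variation, had a median over members of 6.66% in saline, 17.4% in AAV-GFP and 7.56% in AAV-GFP-MBNL1∆. It was 8.86%, 17.7% and 10.6% over all tested genes and 5.49%, 12.2% and 7.36% over the genes with a mean CPM at least that of the least abundant member. The library AAV-GFP 2 held the lowest value of all 9 libraries for 27 of the 37 genes, or 73%. That share was 28.3% over all genes tested and 44.8% over the 7072 genes at least as abundant as the least abundant member.

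**Figure D1:**
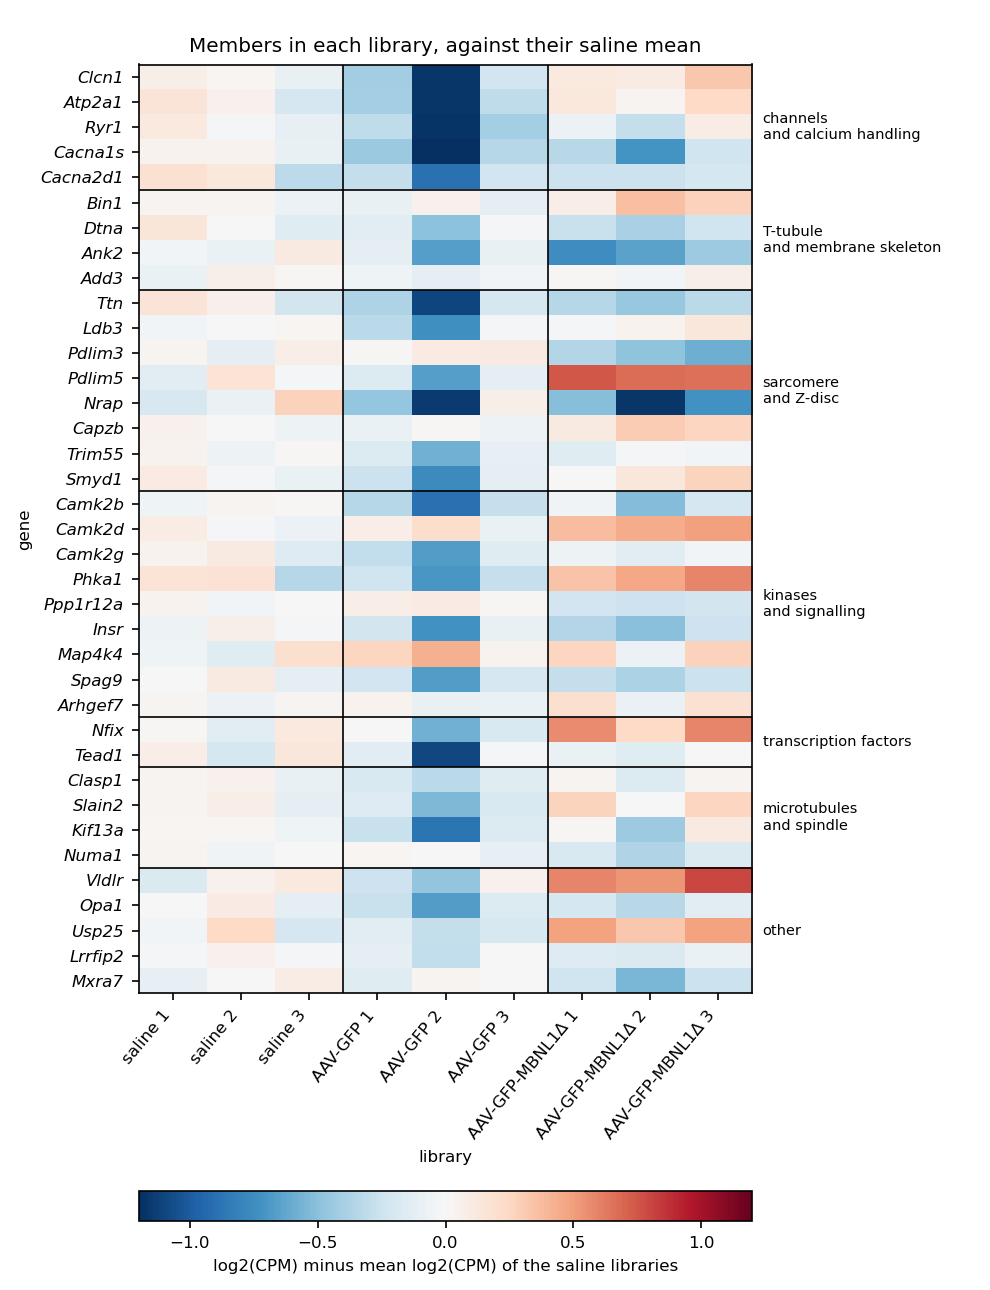
Each row is 1 of the 37 genes, grouped by role, and each column 1 library. The colour gives log2(CPM) minus the mean log2(CPM) of the 3 saline libraries, with the scale ending at 1.2 on either side. AAV-GFP 2 holds the lowest value for 27 of the 37 genes, and Pdlim5, Vldlr, Nfix, Usp25 and Phka1 are red in the 3 AAV-GFP-MBNL1∆ columns.

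Against saline, AAV-GFP was accompanied by no called member. A call here is an adjusted p under 0.05, from edgeR's quasi-likelihood test with Benjamini-Hochberg adjustment over 18514 genes. The test called 0.0% of all genes in either direction in this comparison, and 10 members had an unadjusted p under 0.05, all of them lower. At that unadjusted p, 6.35% of all genes were lower and 15.6% higher. DESeq2, run without the filter on low counts, also called no member, beside 5.74% of 30602 genes higher and 0.225% lower. Without AAV-GFP 3 edgeR called Clcn1 lower and no member higher, beside 1.86% of all genes lower and 15.3% higher. Fitted log2 fold changes were below 0 for 33 of 37 genes, with a median of -0.28 against -0.01 over all genes, and for 14 (37.8%) all 3 AAV-GFP libraries lay below all 3 saline libraries, against 12.4% of genes. For no member were all 3 AAV-GFP libraries above saline, against 14.7% of genes. The median of members in single libraries was -0.17, -0.66 and -0.11 from the saline mean in AAV-GFP 1, 2 and 3. CPM divide by TMM-scaled library sizes, with factors of 1.09, 1.26 and 1.01 in those libraries and 0.951 to 0.999 in saline. In AAV-GFP-MBNL1∆ the factors were 0.892 to 0.951. A larger factor lowers every CPM of its library, and its part in the medians was not tested. The 30 muscle fibre genes lay at -0.21, -0.75 and -0.06 in AAV-GFP 1, 2 and 3, and when libraries were scaled on those fibre genes the median of members became 0.01. Lists of other cells also lay lower in AAV-GFP 2, with endothelial markers at -0.18, -0.69 and -0.15 and Schwann cell markers at -0.21, -0.66 and 0.12. Adipocyte markers lay at -0.19, -0.20 and 0.06, and fibroblast markers at 0.14, 0.60 and -0.01. In bulk tissue fewer fibre nuclei among other cells and less RNA per fibre cannot be told apart.

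AAV-GFP-MBNL1∆ against saline called 3 members higher (8.11%) and 2 lower (5.41%), beside 4.76% and 4.6% of all genes and 7.57% and 4.58% of the 7072 genes of at least the lowest member's abundance. Pdlim5, Vldlr and Camk2d rose, and Ank2 and Pdlim3 fell. The median over members was -0.08 against 0.02 over all genes, 16 genes being above 0 and 21 below. Groups did not overlap for 9 members higher (24.3%) and 13 lower (35.1%), where all genes gave 22.7% and 20.0%. No call held when any 1 of the saline or AAV-GFP-MBNL1∆ libraries was left out, with adjusted p up to 0.148 for Ank2, 0.14 for Pdlim3, 0.129 for Pdlim5, 0.125 for Vldlr and 0.0996 for Camk2d. Without AAV-GFP 2, which enters the fit through the shared spread, 6 members were called higher and 10 lower, beside 10.3% and 11.3% of all genes. Without AAV-GFP 1 only Camk2d was called (3.23% higher and 2.85% lower of all genes), and without AAV-GFP 3 it was 3 higher and 3 lower (6.01% and 6.0%).

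Between the vectors, AAV-GFP-MBNL1∆ against AAV-GFP called 8 members higher (21.6%) and 2 lower (5.41%). Over all genes 10.8% were called higher and 10.3% lower, and over the 7072 genes with a mean CPM at least that of the least abundant member 19.2% and 7.51%. Clcn1, Pdlim5, Camk2d, Phka1, Nfix, Slain2, Vldlr and Usp25 rose, and Pdlim3 and Ppp1r12a fell. Of the 30 muscle fibre genes, 6 were called higher (20%) and 0 lower. The median of members was 0.21 against -0.06 over all genes, that of the 30 fibre genes was 0.39, and it was -0.20 for members when libraries were scaled on the fibre genes. That scaling moved the median of all genes to -0.52 and left 3 members higher (Pdlim5, Phka1 and Atp2a1) and 9 lower, beside 1.66% and 23.8% of all genes. Leaving out AAV-GFP 2 gave 11 higher and 3 lower with a median of 0.07, beside 10.9% and 9.42% of all genes. Leaving out AAV-GFP-MBNL1∆ 3 left Pdlim5 and Vldlr alone, beside 2.93% and 1.42%.

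Both comparisons of the decoy vector share its 3 libraries, so their overlap is no independent count. Pdlim5, Vldlr, Camk2d and Pdlim3 were called in the same direction in each, 6 members only against AAV-GFP, and Ank2 only against saline. The share of all genes in each of these classes was not computed, so the counts only list members. Whether the difference itself differs between controls is the AAV-GFP against saline comparison, in which none of these genes was called. In all, 11 of 37 genes (29.7%) were called in at least 1 comparison, against 23.2% of all tested genes, and 26 in none.

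**Figure D2:**
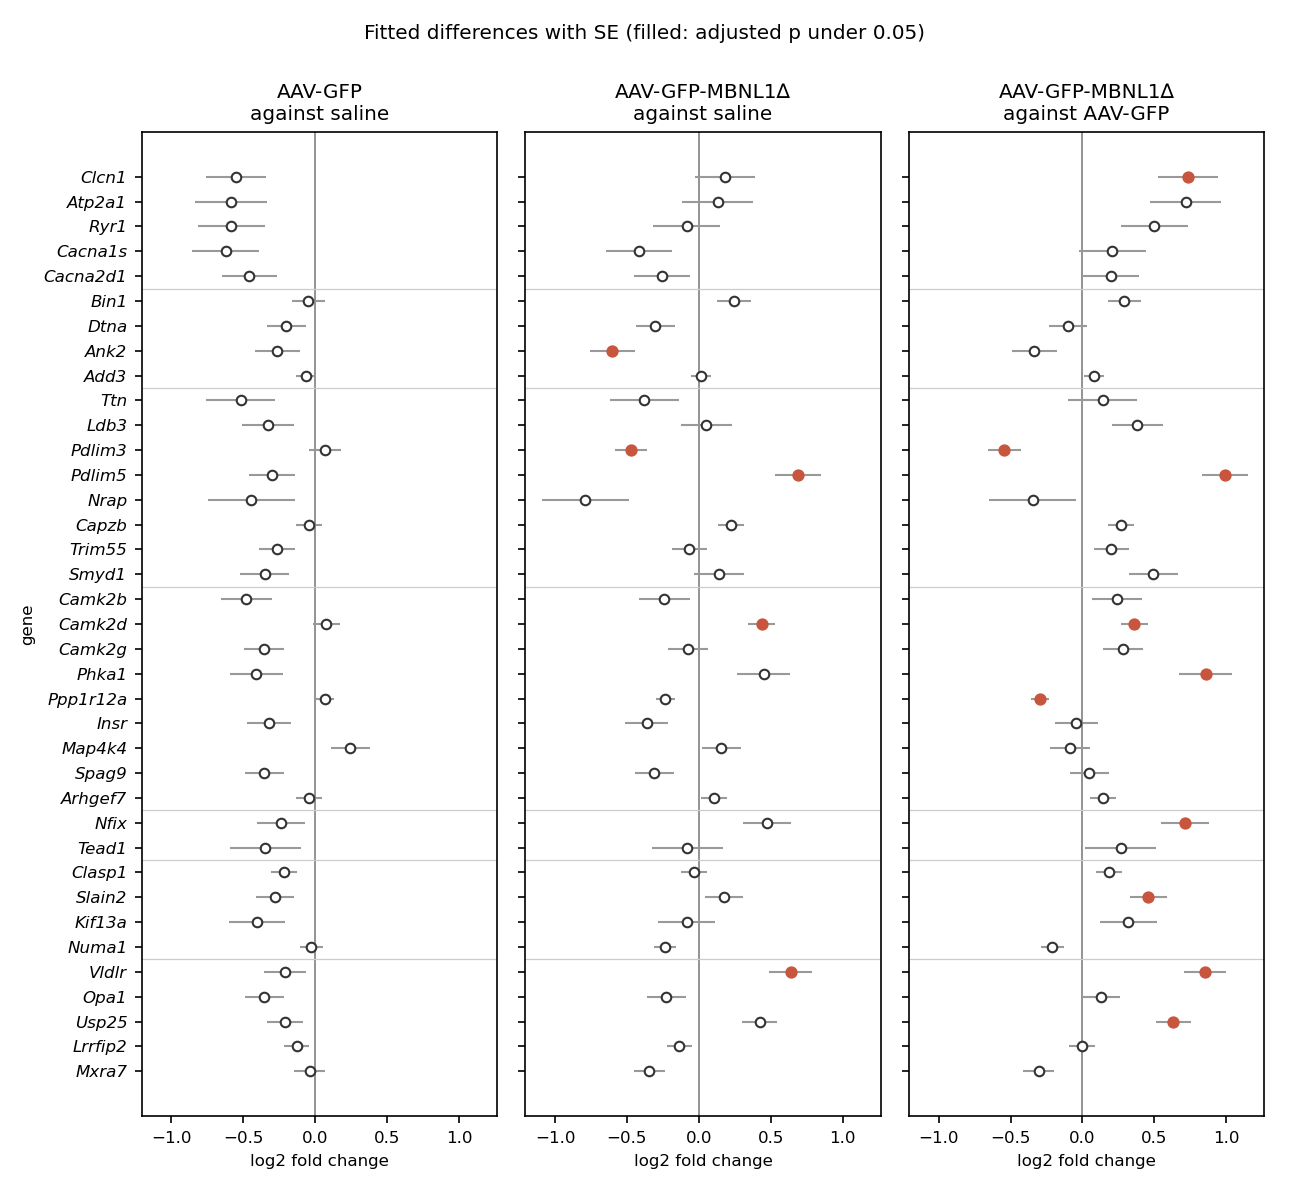
Fitted log2 fold changes (points) with their SE (bars) for the 37 genes in the 3 comparisons, the AAV-GFP-MBNL1∆ libraries being shared by the second and the third panel. Filled points passed an adjusted p of 0.05; none did in the first panel, where 33 of 37 points lie left of 0.

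Channels and calcium handling. Clcn1 encodes the muscle chloride channel that keeps the resting fibre membrane stable. Its level was 229, 222 and 206 CPM in saline, 164, 97.6 and 187 in AAV-GFP, and 237, 235 and 273 in AAV-GFP-MBNL1∆. All AAV-GFP libraries were below all others, and the decoy libraries were above the saline ones. Clcn1 rose against AAV-GFP, with a log2 difference of 0.73 ± 0.21 (SE throughout) and an adjusted p of 0.0408, while the difference was 0.18 ± 0.21 against saline (adjusted p = 0.635). The call against AAV-GFP was kept only without AAV-GFP 2 or 3 and was lost on leaving out any other library (adjusted p up to 0.138). Between AAV-GFP and saline the difference was -0.55 ± 0.21 with an adjusted p of 0.187, and it was called only without AAV-GFP 3 (0.0389).

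Atp2a1, the calcium pump SERCA1 of fast fibres, had 35222, 32779 and 27518 CPM in saline, 23916, 14130 and 25587 in AAV-GFP, and 34681, 32494 and 37428 in the decoy group. As for Clcn1, no AAV-GFP library reached the others, but the difference between vectors of 0.72 ± 0.25 missed the threshold (adjusted p = 0.0662). Cacna1s, the voltage sensor of the T-tubule, was at 1444, 1444 and 1314 CPM in saline, 1027, 597 and 1104 in AAV-GFP, and 1113, 849 and 1187 in the decoy group. Every vector library lay below every saline library. The share of all genes with that pattern was not computed, here or for Spag9, Insr and Opa1 below. The log2 differences of Cacna1s from saline were -0.62 ± 0.23 (adjusted p = 0.181) and -0.42 ± 0.23 (adjusted p = 0.298), so neither was a call. Ryr1, the calcium release channel that Cacna1s opens, and Cacna2d1, an accessory calcium channel subunit, were not called either. The 5 genes of the group ranged from -0.62 to -0.46 in AAV-GFP against saline and from 0.20 to 0.73 between the vectors.

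T-tubule and membrane skeleton. Ank2, the adaptor ankyrin-B that anchors membrane proteins, was at 116, 113 and 129 CPM in saline, 110.3, 75.5 and 112 in AAV-GFP, and 71, 76.4 and 88.3 in AAV-GFP-MBNL1∆. All decoy libraries were below saline, and AAV-GFP 2 lay among them. Ank2 fell against saline by 0.60 ± 0.16 on the log2 scale (adjusted p = 0.046), and the difference from AAV-GFP was -0.34 ± 0.16 (adjusted p = 0.14), which became a call without AAV-GFP 2 (0.00826). Bin1, which shapes the T-tubule membrane, Dtna, the dystrobrevin of the dystrophin complex, and Add3, an adducin of the spectrin skeleton, were called in no comparison. Their differences between vectors were 0.29, -0.10 and 0.08.

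Sarcomere and Z-disc. Pdlim5 and Pdlim3, PDZ-LIM proteins that bind alpha-actinin at the Z-disc, went in opposite directions. Pdlim5 was at 426, 524 and 459.6 CPM in saline, 417, 296 and 432 in AAV-GFP, and 786, 745 and 742 in AAV-GFP-MBNL1∆. The decoy group was above the other 6 libraries. Pdlim5 rose by 0.69 ± 0.16 against saline (adjusted p = 0.0313) and by 0.99 ± 0.16 against AAV-GFP (adjusted p = 0.00669). The second call held under all 19 alternatives, 9 of which leave out a library, with adjusted p up to 0.0339.

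Pdlim3 was at 616, 559.6 and 638 CPM in saline, 609, 646 and 648 in AAV-GFP, and 474, 431 and 401 in the decoy group. Here the saline and AAV-GFP libraries overlapped and the decoy libraries were below both, AAV-GFP 2 being as high as its group. Pdlim3 fell by 0.47 ± 0.11 on the log2 scale against saline (adjusted p = 0.0337) and by 0.54 ± 0.11 against AAV-GFP (adjusted p = 0.0153). The second call was lost without AAV-GFP-MBNL1∆ 2 or 3 (adjusted p up to 0.0813).

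The other 6 genes of the sarcomere group were not called. Nrap, an actin-binding protein of the myotendinous junction and of assembling myofibrils, had the lowest fold change of all members against saline, -0.79 ± 0.30, with an adjusted p of 0.14. Its libraries spread widely, from 1774 to 2442 CPM in saline, 914 to 2125 in AAV-GFP and 899.9 to 1422 in the decoy group. Ttn, the giant elastic protein titin, was at 11435 to 14850 CPM in saline, 6204 to 11539 in AAV-GFP and 9698 to 10684 in the decoy group. Ldb3, Capzb, Trim55 and Smyd1, which serve the Z-disc, the thin filament end, titin signalling and myosin assembly, differed between vectors by 0.38, 0.27, 0.20 and 0.49.

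**Figure D3:**
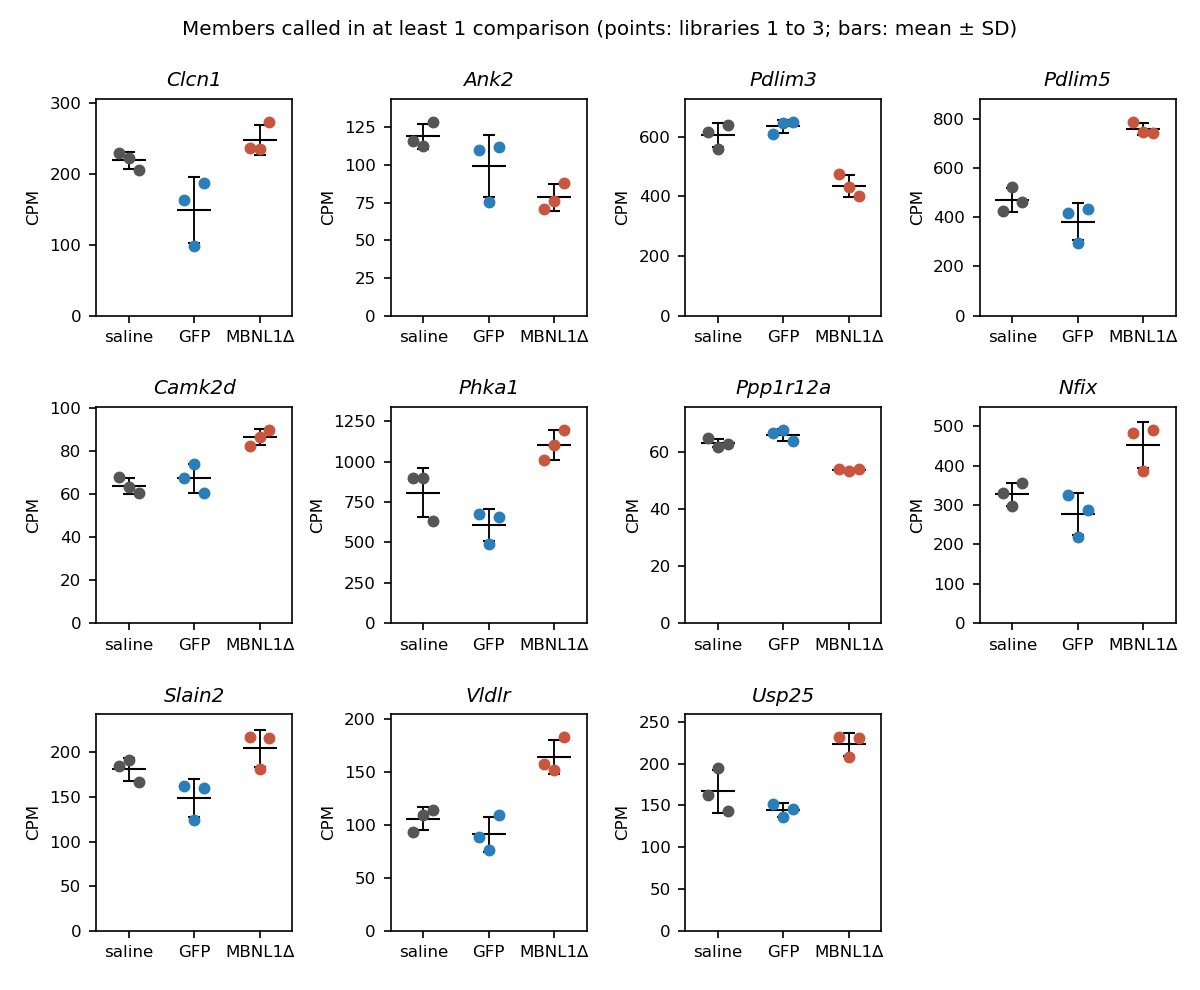
CPM of the 11 genes called in at least 1 comparison, with 1 point per library (replicates 1 to 3 from left to right) and the mean ± SD of each group; each axis starts at 0. The AAV-GFP-MBNL1∆ points of Pdlim5, Vldlr, Camk2d, Phka1, Usp25, Nfix and Clcn1 lie above all others, and those of Pdlim3 and Ppp1r12a below.

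Kinases and signalling. Camk2d, the delta chain of calcium/calmodulin-dependent kinase II whose linker exons are printed above, was at 68, 63.2 and 60.8 CPM in saline, 67.5, 74.2 and 60.5 in AAV-GFP, and 82.7, 86.8 and 90.1 in AAV-GFP-MBNL1∆. Each decoy library exceeded the other 6, and AAV-GFP 2 was the highest of its group. Camk2d rose by 0.44 ± 0.09 against saline (adjusted p = 0.0243) and by 0.36 ± 0.09 against AAV-GFP (adjusted p = 0.0308). The second call was kept without saline 1, saline 3 or AAV-GFP 2 and lost on leaving out any of the others (adjusted p up to 0.109), and with scaling on fibre genes the difference was -0.12.

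Phka1, the muscle regulatory subunit of phosphorylase kinase in glycogen breakdown, was at 897, 899 and 631 CPM in saline, 675, 493 and 659.8 in AAV-GFP, and 1012, 1102 and 1199 in the decoy group. Again the decoy libraries exceeded all others, and saline 3 lay among the AAV-GFP libraries. Phka1 rose against AAV-GFP by 0.86 ± 0.18 (adjusted p = 0.0173), a call lost without AAV-GFP-MBNL1∆ 2 or 3 (up to 0.0776), while the difference from saline was 0.45 ± 0.18 (adjusted p = 0.161). It is the only member on the X chromosome, and for it too the decoy vector and sex cannot be told apart.

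Ppp1r12a, the myosin phosphatase targeting subunit, was at 65, 62 and 63 CPM in saline, 66.7, 68 and 64 in AAV-GFP, and 54, 53.5 and 54.2 in the decoy group. All decoy libraries were below the rest, with a coefficient of variation of 0.71%, the lowest of any member in that group. Ppp1r12a fell against AAV-GFP by 0.30 ± 0.06 on the log2 scale (adjusted p = 0.0174) and differed from saline by -0.23 ± 0.06 (adjusted p = 0.055). The call was lost without AAV-GFP 1, AAV-GFP-MBNL1∆ 1 or AAV-GFP-MBNL1∆ 3 (adjusted p up to 0.0725).

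The other 6 genes of this group were not called. Camk2b, the beta chain of the kinase, had the smallest p of any member in AAV-GFP against saline. It was at 176, 186 and 183 CPM in saline, 143, 97.4 and 150.4 in AAV-GFP, and 177, 127 and 158 in the decoy group. All AAV-GFP libraries lay below saline, at -0.48 ± 0.18 (adjusted p = 0.177). Spag9, a scaffold of JNK signalling, was at 253, 272 and 234 CPM in saline, 215, 159 and 219 in AAV-GFP and 207, 194 and 212 in the decoy group. Each vector library was below each saline library, with -0.36 ± 0.14 (adjusted p = 0.189) and -0.31 ± 0.14 (adjusted p = 0.189). Insr, the insulin receptor, was at 82.6 to 90.5 CPM in saline, 52.1 to 80.8 in AAV-GFP and 60.9 to 72.2 in the decoy group, with all vector libraries below saline. Map4k4, a kinase upstream of JNK, was 1 of the 4 members above 0 in AAV-GFP against saline, at 0.24 ± 0.14 (adjusted p = 0.307).

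Transcription factors. Nfix, a nuclear factor I protein of the embryonic to fetal muscle switch, was at 331, 297 and 355 CPM in saline, 325, 219 and 288 in AAV-GFP, and 483, 386 and 492 in AAV-GFP-MBNL1∆. No decoy library overlapped the others, all being higher. Nfix rose against AAV-GFP by 0.71 ± 0.17 (adjusted p = 0.023), a call lost without AAV-GFP-MBNL1∆ 1 or 3 (up to 0.0943), and the difference from saline was 0.47 ± 0.17 (adjusted p = 0.114). Tead1, which partners YAP and binds muscle promoters, was not called, and its value in AAV-GFP 2 of 138 CPM lay below the 255 to 323 of the other libraries.

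Microtubules and spindle. Slain2, which promotes growth at microtubule plus ends, was at 185, 191 and 167 CPM in saline, 163, 125 and 159.7 in AAV-GFP, and 217, 181 and 216 in the decoy group. In the decoy group values overlapped saline and were above AAV-GFP. Slain2 rose against AAV-GFP by 0.46 ± 0.13 (adjusted p = 0.0407), and the call was kept only without AAV-GFP 2 or 3 (otherwise up to 0.138). Clasp1, a microtubule stabiliser, Kif13a, a kinesin motor, and Numa1, a spindle pole protein, differed between vectors by 0.19, 0.32 and -0.21 with no call.

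Remaining members. Vldlr, a lipoprotein receptor, was at 93.1, 109.1 and 114 CPM in saline, 88.2, 75.8 and 108.7 in AAV-GFP, and 158, 152 and 183 in the decoy group, whose libraries exceeded all others. Vldlr rose by 0.64 ± 0.15 against saline (adjusted p = 0.0309) and by 0.85 ± 0.15 against AAV-GFP (adjusted p = 0.00841), and the second call held when any 1 library was left out (up to 0.0437). It was lost with scaling on fibre genes (adjusted p = 0.0624). Usp25, a deubiquitinating enzyme with a muscle isoform, was at 162, 195 and 144 CPM in saline, 152, 136 and 146 in AAV-GFP, and 232, 208 and 231 in the decoy group, again above all others. Usp25 rose against AAV-GFP by 0.63 ± 0.12 (adjusted p = 0.013), lost only without AAV-GFP-MBNL1∆ 3 among the left-out libraries (0.0613). With scaling on fibre genes that call was lost too (adjusted p = 0.347). The difference of Usp25 from saline was 0.42 ± 0.12 (adjusted p = 0.0673).

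Opa1, the inner-membrane fusion protein of mitochondria, was at 149.6, 159 and 138 CPM in saline, 124, 93.6 and 132 in AAV-GFP, and 128, 118 and 136 in the decoy group. All 6 vector libraries lay below the saline ones, at -0.36 ± 0.14 (adjusted p = 0.188) and -0.23 ± 0.13 (adjusted p = 0.33). Lrrfip2, a Wnt pathway protein, and Mxra7, a matrix remodelling-associated protein, were not called. Mxra7 was the least abundant member in CPM, at 14.3 to 16.3 in saline and 10.5 to 13 in the decoy group.

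Paralogs of members, taken as a list of 41 genes of which 40 were tested, gave 6 higher and 1 lower against saline (15% and 2.5%, beside 4.76% and 4.6% of all genes) and 8 higher and 1 lower against AAV-GFP (20% and 2.5%, beside 10.8% and 10.3%). Cacna2d4, an accessory calcium channel subunit like Cacna2d1, was at 1.65 to 2.67 CPM in saline, 1.25 to 1.82 in AAV-GFP and 12.9 to 21.5 in the decoy group, and rose by 2.94 ± 0.26 against saline (adjusted p = 0.000571). Ryr3, a ryanodine receptor made mainly in young muscle, was at 1.41 to 1.65, 1.19 to 1.77 and 3.5 to 5.91 CPM, and Dtnb, the beta dystrobrevin, at 1.95 to 2.51, 2.06 to 4.59 and 8.37 to 9.86. Smyd2, a lysine methyltransferase, was at 85.3 to 151, 79.97 to 97.3 and 212 to 242 CPM. Trim54, a paralog of Trim55, and Cacna2d3 were higher in the decoy group in both comparisons, with 0.45 and 0.77 against saline. The member of each of these families, Cacna2d1, Ryr1, Dtna, Smyd1 and Trim55, was not called in either. Ank1 and Camk2a were called higher only against AAV-GFP, and Igf1r, the paralog of Insr, fell by 0.38 against saline and dropped by 0.34 against AAV-GFP on the log2 scale.

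Per length of annotated exon, Camk2a made up 49.1% ± 2.75 (SD, n = 3) of the summed RPKM of the 4 calmodulin kinase II genes in saline, 45.8% ± 2.37 in AAV-GFP and 59.2% ± 2.06 in AAV-GFP-MBNL1∆. Camk2g had 30.3%, 32.7% and 24.8%, Camk2b 18%, 17.6% and 13%, and Camk2d 2.57%, 3.89% and 3.00%. The exons annotated for Camk2d cover 22493 bases against 6401 to 9125 for the others, which lowers its per-length value if muscle uses few of them.

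Of 24 splicing regulators listed with the MBNL genes, 21 were tested. Mbnl1 was at 584, 593 and 445 CPM in saline, 491, 356 and 461 in AAV-GFP, and 711, 575 and 642 in the decoy group. The decoy libraries were above AAV-GFP and overlapped saline. Mbnl1 rose against AAV-GFP by 0.56 ± 0.17 (adjusted p = 0.0475), a call lost on leaving out any 1 of the 9 libraries (0.0513 to 0.135), and the difference from saline was 0.25 ± 0.17 (adjusted p = 0.398). Reads from the vector's MBNL1∆ and from mouse Mbnl1 were not separated here, so the row does not measure the delivered transgene. Mbnl2, the other MBNL gene with high counts in muscle, was at 310.3 to 387 CPM in saline, 237 to 343 in AAV-GFP and 277 to 322 in the decoy group, with no call. Ptbp3 (log2 difference -1.05), Hnrnpa1 (-0.30) and Mbnl3 (-2.52) fell against AAV-GFP, and Celf5 (-1.07, at 0.255 to 0.832 CPM) against saline. Mbnl3 had few reads, at 0.504, 1.53 and 0.155 CPM in AAV-GFP and 0.15, 0.182 and 0.0599 in the decoy group, so that the groups overlapped and AAV-GFP 2 was the highest. Without AAV-GFP 2 the difference was -1.39 (adjusted p = 0.111), and that of Ptbp3 was -0.60 (adjusted p = 0.0274). On leaving out each library in turn, Mbnl3 was called only without AAV-GFP 3, Ptbp3 and Celf5 only without AAV-GFP 2 or 3, and Hnrnpa1 only without AAV-GFP 3 or AAV-GFP-MBNL1∆ 2, with adjusted p up to 0.156 for Mbnl3, 0.136 for Ptbp3, 0.12 for Celf5 and 0.145 for Hnrnpa1. Celf1 and Celf2, which oppose MBNL at many exons, and Rbfox1, which often binds the same transcripts, were not called, with 0.24, 0.25 and 0.49 between vectors.

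**Figure D4:**
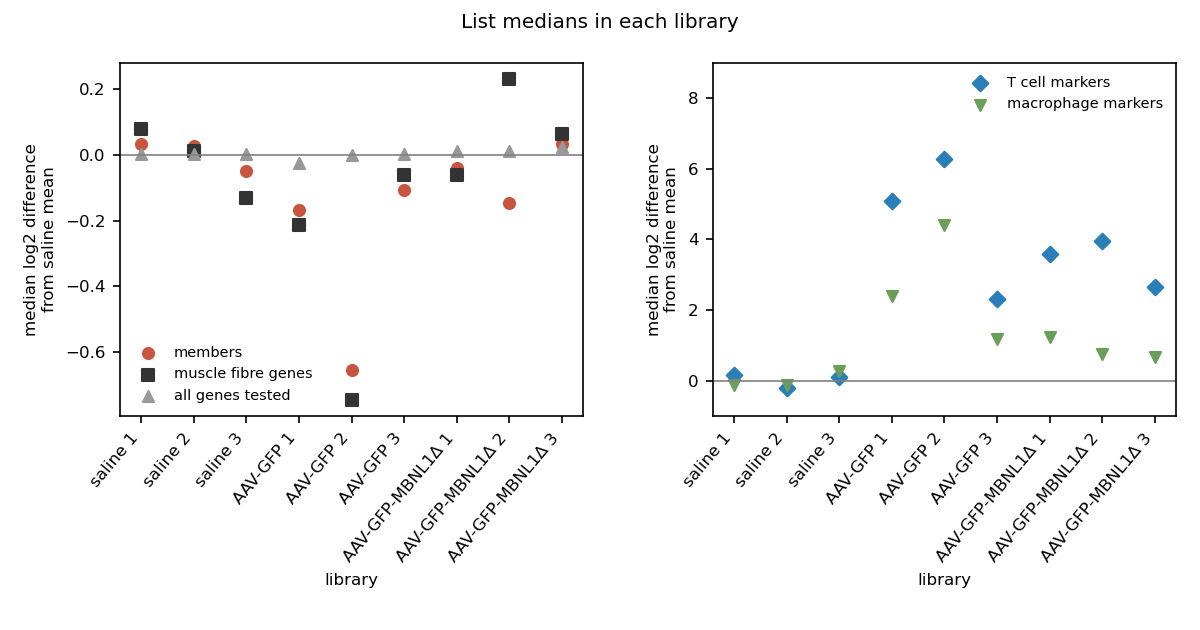
Medians over each list of log2(CPM) minus the saline mean, per library. Left, the 37 members (circles), 30 muscle fibre genes (squares) and all tested genes (triangles). Right, T-cell (diamonds) and macrophage (triangles) markers on a wider axis; in AAV-GFP 2 members are at -0.66, fibre genes at -0.75 and T-cell markers at 6.29.

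The part that these marker lists have in the members' values was not tested. The 10 members called between the vectors did not overlap between those groups, so leaving out AAV-GFP 2 could not turn their sign. In AAV-GFP-MBNL1∆ 2 the members' median was -0.15 while that of the fibre genes was 0.23, the one vector library in which the lists lay on either side of the saline mean by more than 0.1.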

How the data were processed

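The authors deposited raw counts of reads per gene in 9 tables. Trizol-extracted RNA (250 ng) went into KAPA mRNA libraries, per the labels' protocols. The submitters' processing notes name cutadapt 2.10, STAR 2.7.5a, HTSeq 0.12.4, DESeq2 1.30.0 and the build mm10. Whether counting used strand, and on which annotation, is not given in the sources used here. Exons of 12 members overlap another gene, so reads there may be shared. Rows that name no gene (5 per table, 16.8% to 18.3% of reads) were left out. Total counts per library ran from 44603618 to 76970849.

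All libraries entered 1 edgeR 4.0.16 fit (R 4.3.3, TMM, filterByExpr, robust quasi-likelihood test, 1 mean per group; 18514 genes tested, 6 residual degrees of freedom). Benjamini-Hochberg adjustment ran over all tested genes in each comparison, and an adjusted p is edgeR's where no tool is given. CPM and RPKM use TMM-scaled library sizes, and RPKM the union of annotated exons. On data simulated from these libraries, the fit recovered 48.4%, 38.8% and 42.5% of 2-fold changes in AAV-GFP against saline, AAV-GFP-MBNL1∆ against saline and AAV-GFP-MBNL1∆ against AAV-GFP (18301, 18269 and 18267 genes). Of 4-fold changes it recovered 96.2%, 97.1% and 94.7%. The simulation gave all genes and groups the same common spread (biological coefficient of variation 0.232). It therefore does not give the recovery for the members, whose spread differed between groups.

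The members and the gene lists were chosen with earlier results of these data known. Every member may be named, and each library's value is given for called members and, where a comparison called fewer than 5, for those with the 5 smallest p-values. Called genes of the lists of paralogs and of splicing regulators are named. Called muscle fibre genes and cell type markers are not named. Genes named otherwise (Nrap, Ttn, Insr, Map4k4, Tead1, Atp2a1, Mxra7 and Mbnl2 with values) were picked to fill out their role group after their values were seen. Alternatives were DESeq2's size factors, upper-quartile scaling, no filter, DESeq2 1.42.0, limma-voom (limma 3.58.1), only the 2 groups compared, a block for the replicate number, a fit without mitochondrial genes and the 10 most abundant others, and each library left out. Autosomal genes alone and scaling on muscle fibre genes were added after seeing the data. Exons came from GENCODE M21. Intron sequence beside the exons was not analysed here.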

Additional observations from a re-analysis of the deposited data

How the results depend on the processing

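Counts of called members depended on which libraries entered, as did the share of all genes called. With 1 library left out, AAV-GFP-MBNL1∆ against saline called 0 to 6 members higher and 0 to 10 lower (1.5% to 10.3% and 1.13% to 11.3% of all genes), and AAV-GFP-MBNL1∆ against AAV-GFP 2 to 11 higher and 0 to 3 lower (2.93% to 12.5% and 1.42% to 22.4%). AAV-GFP against saline called 0 higher and 0 lower under every setting except without AAV-GFP 3, where 1 was lower (beside 1.86% of all genes lower and 15.3% higher). Against saline, members called higher numbered 1 under upper-quartile scaling (3.4% of all genes) and scaling on fibre genes (1.07%), and 5 under DESeq2 (4.97%) and with only the 2 groups compared (12.9%). Those called lower numbered 1 with DESeq2's size factors (4.47%), upper-quartile scaling (4.42%), no filter (2.12%) or limma-voom (4.07%), and 10 with only the 2 groups (12.8%). Between the vectors, the 2-group fit called 4 higher (4.39%) and 0 lower (2.07%), the unfiltered fit 1 lower (3.7%), and fibre scaling 3 higher (1.66%) and 9 lower (23.8%). The calls of Clcn1, Camk2d, Nfix and Slain2 were lost both in the 2-group fit and with fibre scaling. Those of Vldlr and Usp25 were lost with fibre scaling, and those of Pdlim3 and Ppp1r12a in the 2-group fit. DESeq2 called 12 higher between the vectors (8.39%), and autosomal genes alone 7 higher (9.47%) and 2 lower (11.5%) among 36 members. Shares for DESeq2 and for the unfiltered fit are over 30602 genes, against 18514 in the main fit, so they are not on the same base. The causes were not tested.

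Deviations of same-numbered libraries correlated at -0.0824 to 0.0728 for AAV-GFP with saline, at -0.0366 to -0.00546 for AAV-GFP-MBNL1∆ with saline, and at 0.0728, 0.168 and 0.446 between the vectors. Not every pair was above 0.1, so the numbers were not taken to pair the libraries. With the replicate number as a block, AAV-GFP against saline called 0 higher and 0 lower, AAV-GFP-MBNL1∆ against saline 2 and 1 (4.03% and 3.59% of all genes), and AAV-GFP-MBNL1∆ against AAV-GFP 7 and 2 (8.29% and 7.03%).

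Scaling on fibre genes turned the direction of 15, 3 and 17 of the 37 members in AAV-GFP against saline, AAV-GFP-MBNL1∆ against saline and between the vectors. Among those given per library, it did so in AAV-GFP against saline for Ank2 (0.011), Nfix (0.0434), Slain2 (0.0217), Usp25 (0.1182) and Vldlr (0.073), none of them called. It did so between the vectors for Cacna1s (-0.17), Camk2b (-0.16), Camk2d (-0.12), Opa1 (-0.29) and Spag9 (-0.37, adjusted p = 0.0408). It moved the median of all genes to 0.32, -0.11 and -0.52 in the 3 comparisons. Leaving out libraries in turn, Camk2d ranged from -0.0254 to 0.1538 in AAV-GFP against saline, and between the vectors Cacna1s from -0.0168 to 0.3442, Opa1 from -0.0012 to 0.2038 and Spag9 from -0.0831 to 0.1131. The lowest of these each came without AAV-GFP 2. Atp2a1 and Ttn were absent from the fit without the most abundant genes. The lowest count of a member in a library was 575.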
